A study of Mus musculus with 10 samples.

Results

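The *Gimap* genes encode GTPases of immunity-associated proteins, a family of GTP-binding proteins found mainly in lymphocytes. They were taken by symbol from the deposited table of colon genes, where *Gimap1*, *Gimap3*, *Gimap4*, *Gimap5*, *Gimap6*, *Gimap7*, *Gimap8* and *Gimap9* are 8 of 56691 genes. No other row carries a symbol that starts with Gimap, apart from the antisense gene *Gimap1os*. RNA was sequenced from colon of male C57BL/6 mice that were 8 weeks old, in 5 mice given dextran sulfate sodium (DSS) and 5 mice given DSS and then chick early amniotic fluid (ceAF). Both groups drank 3% DSS for 7 days to induce colitis, and gavage with 15 mL/kg ceAF followed for 10 days in the second of them. Untreated mice were not analysed here, so every value compares ceAF with DSS alone. The mice carry numbers 1 to 5 within each group, as in DSS-1 or ceAF-5, and the libraries held 14676471 to 19901549 counts on genes.

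Gimap proteins share a GTP-binding domain, and several of them are anchored in membranes of organelles such as the lysosome, the endoplasmic reticulum and the mitochondrion. They are known for keeping mature lymphocytes alive, and the genes lie side by side in a single cluster in mammals. In the gut the family is known through *Gimap5*, because mice without a working copy lose lymphocytes and develop colitis on their own.

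All 8 *Gimap* genes had enough counts to be tested, with 19 to 1047 counts per gene and mouse, and each was lower after ceAF. Their median log2 fold change was −0.80, against 0.01 over the 16545 genes tested. After adjustment over all genes, 0 of the 8 passed 0.05 in the quasi-likelihood test of edgeR, as did 0% of all genes tested, and the adjusted p-values of the family ran from 0.656 to 0.822. At an unadjusted p-value under 0.05, 6 of the 8 were lower, beside 3.67% of all genes tested. DESeq2 also called 0 of the 8 after adjustment, beside 0.156% of the genes it adjusted called as lower. Before adjustment it had 6 of the 8 lower and under 0.05, beside 2.75% of the genes it fitted. No *Gimap* gene separated the groups completely, a count of 0 of 8 beside 0.465% of all genes in which the highest ceAF mouse lay under the lowest DSS mouse. In bulk tissue, fewer lymphocytes and less *Gimap* RNA per lymphocyte cannot be told apart.

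*Gimap5*, *Gimap1* and *Gimap3* are the members best known for lymphocyte survival. *Gimap5*, a protein of lysosomal membranes, was measured at 7.53, 5.30, 5.33, 4.55 and 2.34 TMM-normalized counts scaled to a common library size (CPM) in DSS-1 to DSS-5. In ceAF-1 to ceAF-5 it was at 1.45, 2.86, 3.89, 2.09 and 3.35 CPM. DSS-1 to DSS-4 lay above every ceAF mouse, whereas DSS-5 lay inside the range of the ceAF group. The means were 5.01 ± 1.86 and 2.73 ± 0.976 CPM (SD, n = 5 each). The log2 fold change of *Gimap5* was −0.87 (SE 0.336), with an adjusted p-value of 0.680 and an exact two-sided permutation p-value of 0.0635. *Gimap5* had the fewest counts of the family, 19 in ceAF-1 and 130 in DSS-1, so counting error weighs most on its values.

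*Gimap3*, the closest relative of *Gimap5* and placed at mitochondria and the endoplasmic reticulum, stood at 60.7, 39.3, 40.6, 46.3 and 18.2 CPM in DSS-1 to DSS-5. The ceAF mice had 21.9, 21.1, 28.1, 12.1 and 21.4 CPM. Again 4 DSS mice lay above all ceAF mice, and DSS-5 lay below 4 of the 5 ceAF mice. From 41.0 ± 15.3 to 20.9 ± 5.72 CPM (SD, n = 5 each), *Gimap3* had the largest difference of the family with all mice included. Its log2 fold change was −0.97 (SE 0.293), a ratio of ceAF to DSS of 0.510. The adjusted p-value was 0.656 and the exact permutation p-value was 0.0397, while 5 mice against 5 allow no p below 0.00794. By unadjusted p-value *Gimap3* ranked 151 among the 16545 genes tested, the best rank in the family. Without DSS-1, *Gimap7* had the largest difference and the best rank, with a log2 fold change of −0.93 against −0.78 for *Gimap3*. The unadjusted p-values in the quasi-likelihood test were then 0.0110 and 0.0197.

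*Gimap1*, which mature T and B cells need to persist, was at 14.2, 8.44, 8.32, 10.2 and 4.14 CPM in DSS-1 to DSS-5. It was at 6.49, 5.79, 4.88, 3.04 and 5.99 CPM in ceAF-1 to ceAF-5. DSS-5 was the only DSS mouse inside the ceAF range, and DSS-1 was the highest of all 10 mice. The group means were 9.06 ± 3.63 and 5.24 ± 1.36 CPM (SD, n = 5 each). The log2 fold change of *Gimap1* was −0.79 (SE 0.309), with an adjusted p-value of 0.681 and an exact permutation p-value of 0.0794. The antisense gene *Gimap1os* overlaps *Gimap1* and was lower by a similar amount, with a log2 fold change of −0.95 (SE 0.379) on 5 to 39 counts per mouse. Whether the reads were counted by strand is not given in the sources used here, so reads on the stretches shared by *Gimap1* and *Gimap1os* may have been counted for either.

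*Gimap4* is a member tied to the death of T cells rather than to their upkeep. It was at 45.3, 48.6, 43.6, 47.8 and 18.2 CPM in DSS-1 to DSS-5 and at 18.7, 30.8, 32.4, 15.1 and 22.9 CPM in ceAF-1 to ceAF-5. DSS-1 to DSS-4 lay close together and above every ceAF mouse, and DSS-5 lay among the lowest of all. With 40.7 ± 12.7 against 24.0 ± 7.51 CPM (SD, n = 5 each), *Gimap4* had a log2 fold change of −0.76 (SE 0.283). Its adjusted p-value was 0.656 and its exact permutation p-value 0.0714. *Gimap6*, which binds a protein of the autophagy machinery, was at 46.6, 28.9, 29.5, 31.1 and 14.9 CPM in the DSS mice. In the ceAF mice it was at 12.1, 19.1, 21.7, 10.4 and 22.7 CPM. Here too the groups overlapped only through DSS-5, which lay above ceAF-1 and ceAF-4 and below the other 3. *Gimap6* averaged 30.2 ± 11.2 and 17.2 ± 5.61 CPM (SD, n = 5 each), a log2 fold change of −0.81 (SE 0.299). The adjusted p-value was 0.656 and the exact permutation p-value 0.0635.

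*Gimap7*, whose protein speeds up GTP hydrolysis when its copies pair, was at 5.51, 7.55, 7.90, 9.35 and 3.72 CPM in DSS-1 to DSS-5. It was at 2.67, 4.23, 5.15, 2.62 and 3.90 CPM in ceAF-1 to ceAF-5. *Gimap7* was the only member in which DSS-1 lay below each of DSS-2, DSS-3 and DSS-4, and this mouse lay just above the highest ceAF mouse. The log2 fold change was −0.87 (SE 0.284) between means of 6.80 and 3.72 CPM. The adjusted p-value was 0.656 and the exact permutation p-value 0.0397.

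*Gimap8* and *Gimap9* showed the smallest differences. *Gimap8*, the largest protein of the family with several GTP-binding domains in a row, was at 35.9, 20.8, 22.3, 22.3 and 11.4 CPM in the DSS mice. The ceAF mice had 9.92, 15.6, 17.6, 13.5 and 22.9 CPM. Only DSS-1 lay above all ceAF mice, and ceAF-5 was higher than the other 4 DSS mice. The means were 22.5 ± 8.73 and 15.9 ± 4.85 CPM (SD, n = 5 each), the log2 fold change was −0.50 (SE 0.289), and the exact permutation p-value was 0.198. *Gimap9* was at 8.98, 7.40, 8.02, 12.4 and 5.10 CPM in DSS-1 to DSS-5 and at 6.64, 8.07, 6.80, 3.82 and 7.31 CPM in ceAF-1 to ceAF-5. DSS-1 and DSS-4 lay above all ceAF mice, and the other 3 DSS mice lay within their range. The means of 8.39 ± 2.67 and 6.53 ± 1.61 CPM (SD, n = 5 each) gave a log2 fold change of −0.36 (SE 0.259) and an exact permutation p-value of 0.262. The adjusted p-values were 0.758 for *Gimap8* and 0.822 for *Gimap9*. Single mice weighed on both, since the log2 fold change of *Gimap8* was −0.26 without DSS-1. That of *Gimap9* was −0.18 without DSS-4 and −0.21 without ceAF-4. Whether the 8 genes differ among themselves in their fold change was not tested.

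**Figure D1:**
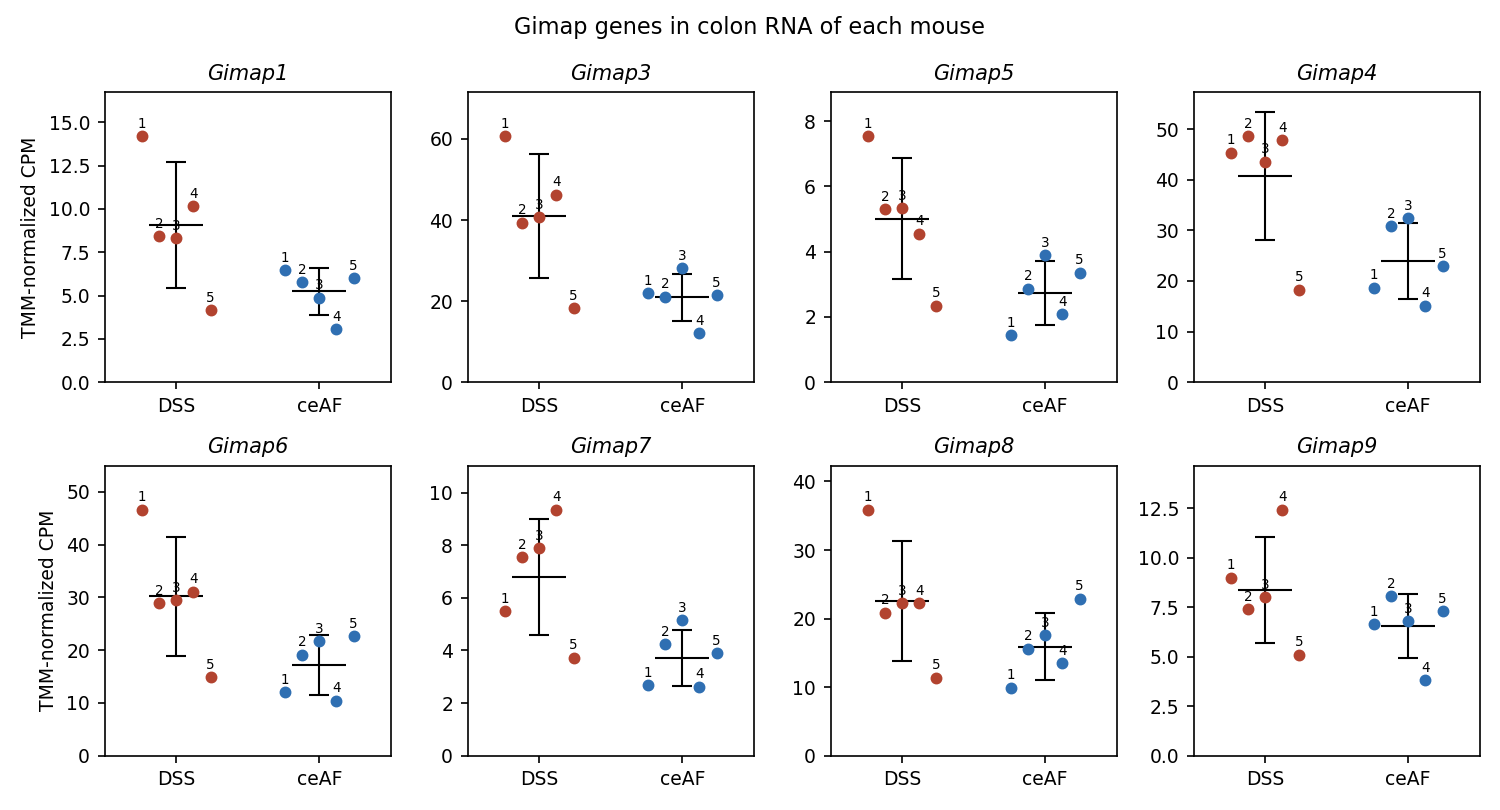
TMM-normalized CPM (vertical axes, from 0) of the 8 *Gimap* genes in the DSS and ceAF groups, with a numbered point for each mouse and a bar for the mean and SD of 5 mice. DSS-5 is the lowest DSS mouse in all 8 panels, and in 6 panels the other 4 DSS mice lie above every ceAF mouse.

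DSS-5 was the lowest DSS mouse in all 8 genes, and ceAF-4 was the lowest ceAF mouse in 6 of them, ceAF-1 in the other 2. At the upper end, DSS-1 was the highest of all mice in 5 genes, DSS-4 in 2 and DSS-2 in 1. The mean of the 8 genes on the log2 scale, relative to the mean of the mice, was 0.82, 0.44, 0.46 and 0.63 in DSS-1 to DSS-4. In DSS-5 it was −0.57, below 3 of the ceAF mice, whose values were −0.61, −0.15, −0.02, −0.90 and −0.10. Summed over the 8 genes, the DSS group had 163.7 ± 53.5 CPM and the ceAF group 96.2 ± 24.1 (SD, n = 5 each). The number of *Gimap* genes at an unadjusted p-value under 0.05 depended on single mice. By edgeR it was 7 of 8 without DSS-5, beside 4.54% of all genes lower at that threshold, and 7 without ceAF-5, beside 3.17%. It was 4 without ceAF-4, beside 3.14%, and 3 without DSS-1, beside 1.92%. The median log2 fold change was −0.96 without DSS-5 and −0.63 without DSS-1. In each of these fits 0 of the 8 were called after adjustment.

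Levels of different genes were compared per length, as the authors' FPKM (fragments per length of the gene and size of the library). *Gimap4* was the most abundant member, with 22.3 ± 6.88 FPKM after DSS alone and 12.9 ± 4.01 after ceAF (SD, n = 5 each). *Gimap3* followed with a mean of 16.1 ± 6.15 FPKM in the DSS group, and *Gimap6* with 8.72 ± 3.38 and 4.90 ± 1.73 FPKM in the 2 groups. *Gimap8* had a mean over all mice of 5.23 FPKM, *Gimap9* 4.52, *Gimap1* 2.32, *Gimap7* 2.26 and *Gimap5* 0.939. The order held within single mice at its upper end, since *Gimap4* was above *Gimap3* and *Gimap3* above *Gimap6* in 10 of 10 mice. *Gimap6* was above *Gimap8* in 9 mice. *Gimap8* and *Gimap9* could not be ranked, with *Gimap8* higher in 6 of 10 mice, and neither could *Gimap1* and *Gimap7*, with *Gimap1* higher in 4. *Gimap5* was the lowest member in each mouse.

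The makeup of the family's RNA was read as shares of FPKM. *Gimap4* held 34.1 ± 3.92% of the summed *Gimap* FPKM after DSS alone and 33.8 ± 3.56% after ceAF (SD, n = 5 each). *Gimap3* held 24.2 ± 1.97% and 21.2 ± 3.15%, and *Gimap6* 13.2 ± 1.48% and 12.7 ± 1.70%. *Gimap9* held 8.12 ± 1.81% and 10.4 ± 1.51%, and *Gimap8* 9.36 ± 1.33% and 11.4 ± 3.08%. These differences were not tested. *Gimap3* and *Gimap5*, the closest relatives, kept a ratio of FPKM between 9.34 and 16.4 in 9 mice, with 24.3 in ceAF-1, the mouse with 19 counts of *Gimap5*.

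Across the 10 mice the members varied together. Over their 28 pairs, the correlation of log2 CPM had a median r of 0.83 and ran from 0.61 for *Gimap5* with *Gimap9* to 0.96 for *Gimap5* with *Gimap6*. With the group means removed, the median was 0.75 and the range 0.47 to 0.94. The highest of these values joined *Gimap5* with *Gimap8*, *Gimap5* with *Gimap6* (0.93), *Gimap6* with *Gimap8* (0.93) and *Gimap1* with *Gimap3* (0.92). The lowest was that of *Gimap1* with *Gimap7*. These values are given as a description, since the 8 genes share the same libraries. DSS-5, the lowest DSS mouse in all 8 genes, weighed on them.

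In the deposited table the cluster spans 123618 bases of chromosome 6, from 48624168 to 48747785, and the build of these positions is not named. From left to right lie *Gimap8* (ENSMUSG00000064262, 48624168 to 48637809), *Gimap9* (ENSMUSG00000051124, 48653063 to 48656048) and *Gimap4* (ENSMUSG00000054435, 48661483 to 48668994), all on the forward strand. *Gimap6* follows on the reverse strand (ENSMUSG00000047867, 48678516 to 48685159). *Gimap7* (ENSMUSG00000043931, 48695555 to 48701570), *Gimap1* (ENSMUSG00000090019, 48715988 to 48720729) and *Gimap5* (ENSMUSG00000043505, 48723131 to 48731144) are on the forward strand. *Gimap3* closes the cluster on the reverse strand (ENSMUSG00000039264, 48741398 to 48747785). The pair with the smallest differences, *Gimap8* and *Gimap9*, forms the left end, and *Gimap3*, with the largest over all mice, the right end. Without DSS-1 the largest log2 fold change was that of *Gimap7* (−0.93), which lies between *Gimap6* and *Gimap1*.

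Between the *Gimap* genes lie 5 other genes, of which 3 were tested. Besides *Gimap1os* these were *4833403J16Rik*, with a log2 fold change of −0.94 (SE 0.364) on 8 to 45 counts per mouse, and *Gm44226*, with −0.35 (SE 0.487) on 1 to 18 counts. *Gm28053*, annotated from *Gimap7* to *Gimap5* on the same strand, held 1 to 8 counts per mouse and was not tested, and *Gm44262* held 0. Of the 10 genes flanking the cluster, 4 were tested. *Tmem176b* and *Tmem176a*, to the right of *Gimap3*, had log2 fold changes of −0.14 (SE 0.157) and −0.09 (SE 0.186). *Zfp775*, on the left, had −0.29 (SE 0.394). *AI854703*, the left neighbor of *Gimap8*, had 0.02 (SE 0.910), with 66, 20 and 13 counts in DSS-1, ceAF-1 and ceAF-4 and 433 to 725 in the other 7 mice. Of those 3 mice, ceAF-1 and ceAF-4 had the lowest *Gimap* means of their group, whereas DSS-1 had the highest of all.

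**Figure D2:**
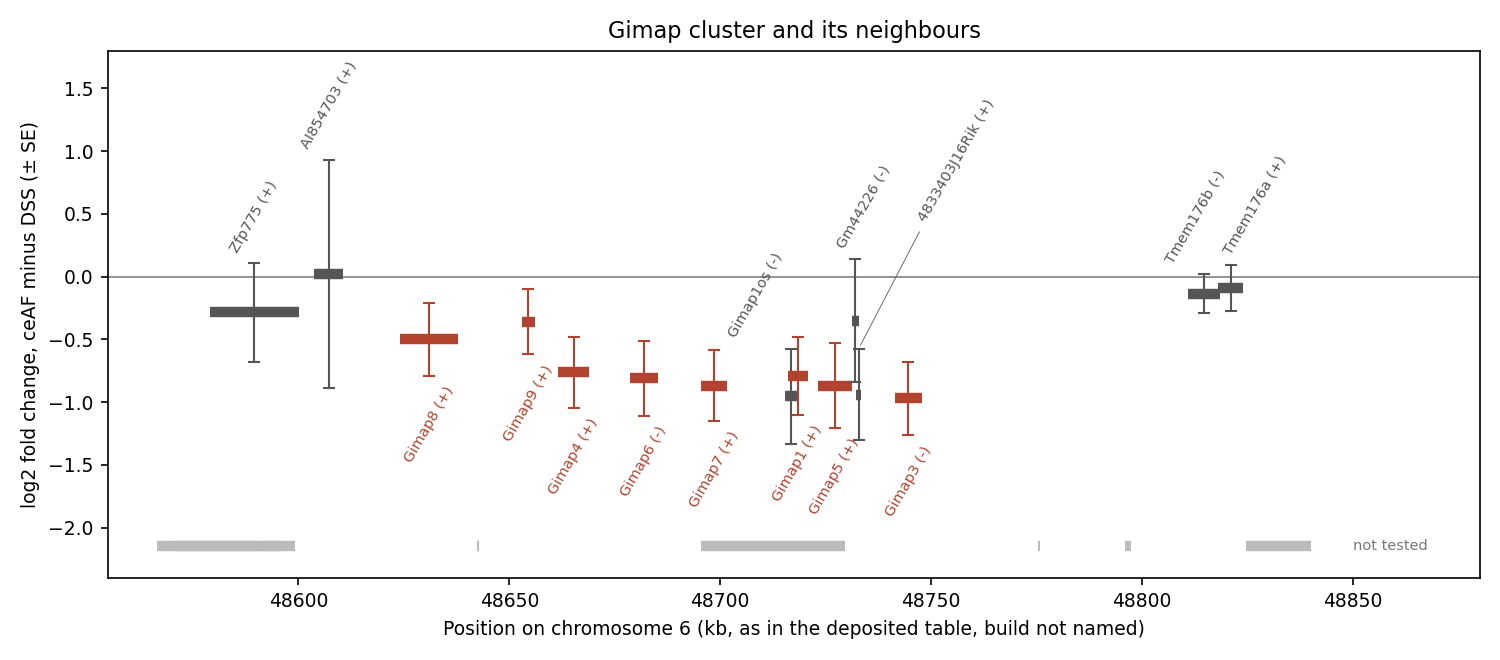
Map of the *Gimap* cluster on chromosome 6, with position in kb on the horizontal axis and the log2 fold change of ceAF minus DSS with its SE on the vertical axis; bars give the extent of each gene, red for *Gimap* genes, dark grey for other tested genes and light grey at the bottom for genes not tested. All 8 *Gimap* genes lie below 0, from −0.36 for *Gimap9* to −0.97 for *Gimap3*, and *Tmem176b* and *Tmem176a* lie at −0.14 and −0.09.

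Reads shared between relatives bear on these values. In GENCODE M21 transcripts, 190 stretches of 50 bases were found in both *Gimap3* and *Gimap5*, which is 7.52% of the distinct stretches of *Gimap3* and 4.53% of those of *Gimap5*. No other pair of *Gimap* genes shared a stretch of this length. *Gimap1* shared 32.4% of its stretches with *Gimap1os*, read on either strand, and 4.78% with *Gm28053*. *Gm28053* also held 2.50% of the stretches of *Gimap5*, 1.39% of those of *Gimap7* and 0.316% of those of *Gimap3*. Genes other than these shared 1.57% of the stretches of *Gimap1*, 0.633% of those of *Gimap3* and 0.17% of those of *Gimap6*. How reads on shared sequence were assigned is not given in the sources used here. The counts of *Gimap3*, *Gimap5*, *Gimap1*, *Gimap7* and *Gimap6* are therefore uncertain. By how much is not known, because these are shares of distinct stretches and not of reads.

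Since the members varied together across mice, their promoters were compared in RefSeq windows of 300 bases, 250 before and 50 after each gene's start, on GRCm38.p6. All 8 genes had a window, *Gimap8* had 2, and these 9 windows were searched on both strands beside 32851 windows of all genes. A Runt-type motif (TGNGGT) was found for 6 of the 8 genes, *Gimap1*, *Gimap4*, *Gimap5*, *Gimap7*, *Gimap8* and *Gimap9*. It was in 6 of the 9 windows, while 45.8% of all windows hold it. A Klf-type motif (CACCC) was found for 5 genes, *Gimap3*, *Gimap4*, *Gimap5*, *Gimap8* and *Gimap9*, in 6 of the 9 windows, and in 57.5% of all windows. A Tcf/Lef-type motif (CTTTGA) was found for *Gimap4* and *Gimap7* and in 16% of all windows, and TATAAA for *Gimap6* and in 13.6%. An Ets-type motif (CCGGAA) was in none of the 9 windows and in 14.9% of all. The *Gimap* windows held 43.3% to 57.3% G and C, with a median of 48.0% against 52.7% over all windows, and 2 to 8 CpG, with a median of 4 against 7. A match is a description of the letters, and no binding was measured.

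The windows of *Gimap4*, as the most abundant member, and *Gimap3*, as the member with the smallest p-value over all mice, are shown. Capitals mark every match to the 5 motifs on either strand. In the deposited table each *Gimap* gene starts at −23066 bases from its start in GRCm38, so these windows do not line up with the positions given above. *Gimap4* lies at chr6:48684328-48684627 on the forward strand and *Gimap3* at chr6:48770802-48771101 on the reverse strand of GRCm38.p6, both written 5′ to 3′ in the direction of the gene.
Gimap4: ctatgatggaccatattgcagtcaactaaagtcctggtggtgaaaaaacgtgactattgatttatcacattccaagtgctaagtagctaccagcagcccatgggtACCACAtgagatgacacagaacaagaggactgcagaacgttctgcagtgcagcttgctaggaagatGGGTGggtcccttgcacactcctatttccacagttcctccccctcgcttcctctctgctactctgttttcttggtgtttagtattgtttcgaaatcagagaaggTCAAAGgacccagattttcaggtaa
Gimap3: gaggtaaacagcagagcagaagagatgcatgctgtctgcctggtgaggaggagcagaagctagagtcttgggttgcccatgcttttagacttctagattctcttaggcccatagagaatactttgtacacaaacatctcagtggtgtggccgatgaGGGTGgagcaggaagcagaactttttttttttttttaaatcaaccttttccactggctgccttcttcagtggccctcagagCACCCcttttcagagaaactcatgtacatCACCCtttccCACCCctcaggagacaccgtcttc
*Gimap3* has only CACCC or its reverse complement, 4 times. *Gimap4* has 1 match each to the Runt, Klf and Tcf/Lef motifs.

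Marker genes of cell types were read in the same libraries, because *Gimap* genes are used by several of them. Over all genes tested, 48.56% were lower after ceAF and 3.67% were lower at an unadjusted p-value under 0.05 by edgeR, for comparison with each list. The T cell list had 15 of 15 tested genes lower in the ceAF group, 14 of them at an unadjusted p-value under 0.05, and a median log2 fold change of −1.24. Its summed level was 102.1 ± 31.7 FPKM after DSS alone and 40.6 ± 13.3 after ceAF (SD, n = 5 each), with *Trbc2* the most abundant at a mean of 16.7 FPKM and no marker at 0 in any mouse. By mouse, the T cell sum was 118.5, 113.5, 115.5, 117.7 and 45.5 FPKM in DSS-1 to DSS-5 and 39.3, 60.5, 45.2, 26.3 and 31.7 in ceAF-1 to ceAF-5. The *Gimap* sum was 88.8, 67.8, 68.0, 71.3 and 31.4 FPKM in the DSS mice and 29.0, 43.4, 46.9, 25.6 and 45.1 in the ceAF mice. DSS-5 was the low DSS mouse in both sums, and ceAF-4 the low ceAF mouse. The part of T cells in the *Gimap* difference was not tested. Relative to the mean of the T cell markers, the *Gimap* mean was higher in the ceAF group, at 0.27 ± 0.40 against −0.27 ± 0.20 in the DSS group on the log2 scale (SD, n = 5 each). Of the ceAF mice, ceAF-5 lay at 0.91 and the others at −0.16 to 0.30. The groups overlapped, since DSS-1 (−0.09) and DSS-5 (−0.03) lay above ceAF-2 (−0.16), while DSS-2 to DSS-4 lay at −0.45 to −0.39. The difference between the groups was not tested.

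Each *Gimap* gene was correlated with 4 marker scores over the 10 mice, 32 pairs in all, where a score is the mean of the centred log2 CPM of a list. With the T cell score, r was highest for *Gimap4* (r = 0.94, rho = 0.90, permutation p = 0.00046 and 0.00084, adjusted over the 32 pairs 0.00491 and 0.00928). It was lowest for *Gimap8* (r = 0.64, rho = 0.55, permutation p = 0.0474 and 0.105, adjusted 0.0948 and 0.188). *Gimap3* (r = 0.91, rho = 0.84), *Gimap7* (0.90 and 0.90), *Gimap1* (0.84 and 0.81), *Gimap6* (0.83 and 0.84), *Gimap5* (0.80 and 0.79) and *Gimap9* (0.76 and 0.87) lay between, so that 7 of 8 were under 0.05 after adjustment of the permutation p-values by either measure. Of all genes tested, with the T cell markers left out, 1.74% reached the lowest r called and 2.03% the lowest rho called. Without DSS-1 and DSS-4, the 2 mice farthest from the median score, r ranged from 0.48 for *Gimap8* to 0.92 for *Gimap4*. Within groups, after centring on the group means, r was 0.52 to 0.94 and 0 of 8 passed after adjustment of the permutation p-values.

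With the mononuclear phagocyte score, *Gimap5* had the highest value by either measure (r = 0.89, rho = 0.94, permutation p = 1e-05 and 0.00018, adjusted 0.00032 and 0.00576), where 1e-05 is the smallest p these permutations can give. *Gimap8* followed (r = 0.87, rho = 0.75, permutation p = 0.00086 and 0.0175, adjusted 0.0057 and 0.043), then *Gimap6* (r = 0.82, rho = 0.87, permutation p = 0.0025 and 0.00233, adjusted 0.0114 and 0.0149). *Gimap9* had the lowest r (0.38, rho = 0.72). By r, 3 of 8 were under 0.05 after adjustment of the permutation p-values, and by rho 6 of 8, with *Gimap3*, *Gimap4* and *Gimap7* added. Of all genes tested, 3.11% reached the lowest r called and 3.05% the lowest rho called, with the markers of the score left out. Without DSS-1 and ceAF-1, the 2 mice farthest from the median, r was 0.68 to 0.88 over the 8 genes. *Gimap8* was then the lowest and *Gimap3* (0.87) came after *Gimap5*, so the order of the members by r rested on these mice. After centring on the group means, *Gimap5* was the only gene of any pair under 0.05 (r = 0.85, adjusted permutation p = 0.025). The centred r was 0.83 for *Gimap8* and 0.74 for *Gimap6*. The phagocyte list had 10 of 10 genes lower, 3 of them at an unadjusted p-value under 0.05, a median log2 fold change of −0.57 (−0.28 without DSS-1), and *Lyz2* as its most abundant gene at 80.7 FPKM.

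With the B cell score, *Gimap8* (r = 0.79, rho = 0.66, permutation p = 0.00733 and 0.0448, adjusted 0.0213 and 0.0955) stood first. *Gimap6* (r = 0.75, rho = 0.53) and *Gimap5* (r = 0.74, rho = 0.55) also passed by r, with adjusted permutation p-values of 0.0349 and 0.0377, and 0 of the 8 passed by rho. The lowest of these r values was reached by 3.40% of all genes tested other than the markers. The relation rested on DSS-1, with a score of 2.51, and ceAF-1, with −2.38, since without them r was 0.41 for *Gimap8*, 0.45 for *Gimap6* and 0.29 for *Gimap5*. After centring on the group means, r over all mice was 0.78, 0.78 and 0.77 for these 3 genes, and 0 passed after adjustment of the permutation p-values. The B cell list had 10 of 10 genes lower, 0 under 0.05 by edgeR before adjustment, and a median of −0.71. The direction rested on DSS-1, without which 10 of 10 were higher after ceAF with a median of 0.47. The B cell sum was 105.4 FPKM in DSS-1 and 3.22 to 50.5 in the other 9 mice, and *Cd79a* was its most abundant gene at 9.26 FPKM. With the blood endothelial score, r ran from −0.02 for *Gimap9* to 0.56 for *Gimap8* and 0 of 8 passed after adjustment of the permutation p-values. Without ceAF-1 and ceAF-4 it ran from 0.41 for *Gimap7* to 0.80 for *Gimap3*. ceAF-4 had the highest endothelial score of all mice (0.76, beside 0.75 in DSS-1) and the lowest *Gimap* mean, and ceAF-1 the lowest endothelial score (−1.30). The endothelial list had 12 of 13 genes lower with a median of −0.31 (−0.16 without DSS-1), and *Cldn5* alone was under 0.05 before adjustment, with a log2 fold change of −1.41 (SE 0.473).

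**Figure D3:**
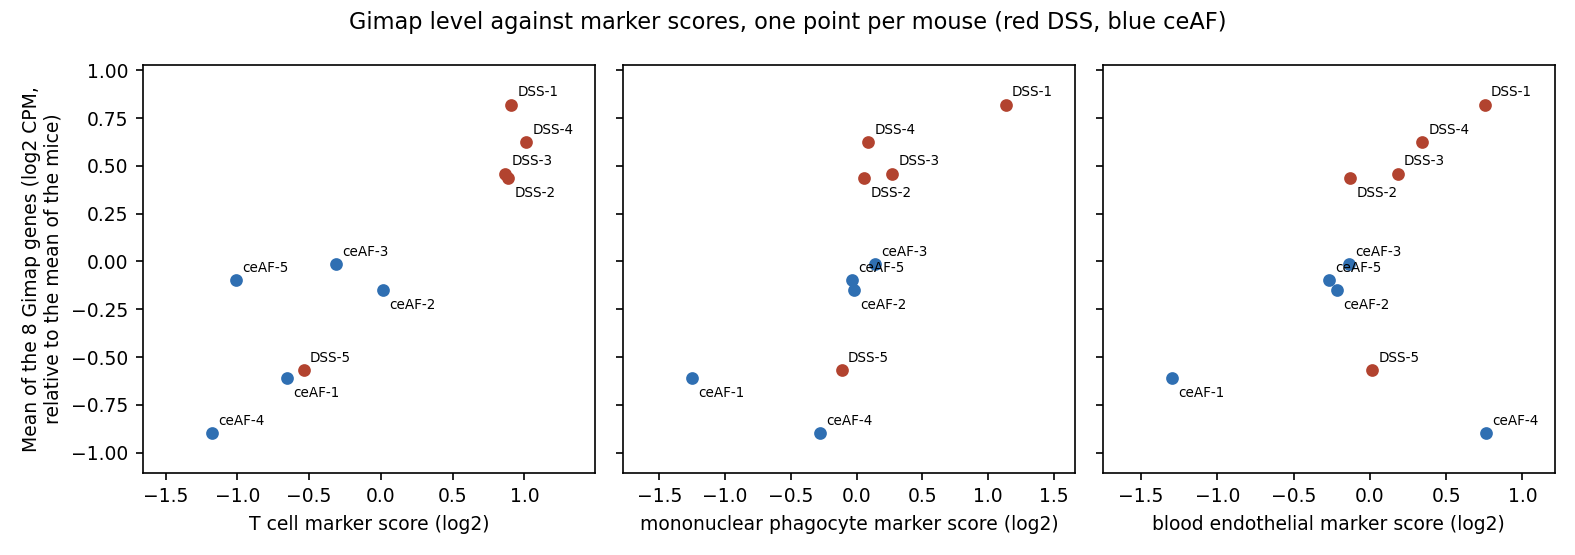
Mean of the 8 *Gimap* genes in each mouse (vertical axis, log2 CPM relative to the mean of the mice) against the T cell, mononuclear phagocyte and blood endothelial marker scores (horizontal axes, log2), with DSS mice in red and ceAF mice in blue. DSS-5 lies among the ceAF mice at a T cell score of −0.54 and a *Gimap* mean of −0.57, and ceAF-4 combines the highest endothelial score with the lowest *Gimap* mean.

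Lymphocyte states were read from further lists. The list of naive or recirculating lymphocytes had 9 of 10 genes lower, 4 at an unadjusted p-value under 0.05, and a median of −0.87. Without DSS-1 it had 7 of 10 lower and a median of −0.18, where the *Gimap* median was −0.63. *Lef1* had the smallest p-value (log2 fold change −1.52, SE 0.488), and *Foxp1*, the most abundant, had 0.02 (SE 0.147). The list of effector or tissue lymphocytes had 10 of 10 lower, 5 at an unadjusted p-value under 0.05, and a median of −1.05, with *Ccl5* at −1.70 (SE 0.351) and *Gzma*, the most abundant, at −0.49 (SE 0.385). Relative to the naive list, the *Gimap* mean was 0.00 ± 0.71 in DSS mice and −0.00 ± 0.23 in ceAF mice (log2, SD, n = 5 each). Here DSS-1 lay at −1.09, DSS-5 at −0.33 and DSS-2 to DSS-4 at 0.44 to 0.54, so the equal means rested on DSS-1. Relative to the B cell list the groups differed by −0.03 (SD 1.11 and 1.32), also with DSS-1 lowest at −1.69. Relative to the effector list they differed by 0.42 (SD 0.49 and 0.48), and single mice weighed on this value. For that list ceAF-5 was highest at 0.86, and DSS-1 lay at 0.63 while the other DSS mice lay at −0.57 to −0.24. None of these differences was tested. DSS-1 was the highest mouse for the naive list, with 67.5 FPKM against 10.6 to 22.9 in the other mice, while its *Gimap* sum was 88.8 against 25.6 to 71.3. The NK cell list had 4 of 6 genes tested, all 4 lower with 0 under 0.05 by edgeR before adjustment and a median of −0.24.

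By median fold change with all mice included, the other lists stood further from the family. This order rested on DSS-1. Without that mouse the B cell median (0.47) lay further from the *Gimap* median (−0.63) than the epithelial median (0.07) did. The T cell (−1.19) and effector lymphocyte (−1.24) medians then lay further from the *Gimap* median than the smooth muscle median (−0.10) did. The neutrophil list had 6 of 7 genes tested, all 6 lower, 5 of them under 0.05 before adjustment, with a median of −3.96 (−1.52 without DSS-1). *Ly6g*, its most abundant gene at 197.8 FPKM, had only −0.67 (SE 0.578). The neutrophil sum was 2781 FPKM in DSS-1 and 19.6 to 620.1 in the other mice. In the ceAF group this sum was largely *Ly6g*, which averaged 142.8 CPM against 0.652 to 6.25 CPM for the other tested markers of the list. DSS-1 was also the highest of all mice in 5 of the 8 *Gimap* genes, though not in *Gimap4*, *Gimap7* or *Gimap9*. Epithelial markers had 3 of 7 lower and a median of 0.07, and smooth muscle markers had 6 of 6 lower and a median of −0.19 (−0.10 without DSS-1), both with 0 under 0.05 by edgeR before adjustment. DSS-5, the lowest DSS mouse in each *Gimap* gene, had the lowest epithelial sum of all mice, 3537 FPKM against 4687 to 5790. Its smooth muscle sum was the highest (1003 FPKM, beside 986.3 in ceAF-2).

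*Gimap* proteins are placed beside the Il7 receptor and the Bcl2 family in accounts of lymphocyte survival. Of 20 genes of that list, all tested, 15 were lower and 1 was under 0.05 before adjustment, and the median log2 fold change was −0.10 (−0.04 without DSS-1). That gene was *Il2rg*, the shared chain of several cytokine receptors, with a log2 fold change of −0.74 (SE 0.306). *Socs1*, an inhibitor of cytokine signaling, had −0.77 (SE 0.406), *Foxo3* had the highest value at 0.05 (SE 0.139), and *Mcl1*, the most abundant at 164 FPKM, had 0.03 (SE 0.133). The *Gimap* genes thus differed by more than the median of this list, and of its genes only *Il2rg* and *Socs1* lay below *Gimap9*, the smallest *Gimap* difference at −0.36. Which cells of the colon the RNA of this list came from was not tested, so its median need not describe lymphocytes. With the *Gimap* mean, centred on the groups, *Il2rg* had an r of 0.91, and the median of the list was 0.12.

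The genes most like the *Gimap* mean were sought among 15352 genes with a mean of at least 1 CPM, by r of log2 CPM centred on the group means over the 10 mice. The highest were *Mndal* (0.98), *Kynu* (0.97), *Cd2* (0.97), *Myo1f* (0.97), *Sash3* (0.97), *Scimp* (0.97), *Aph1c* (0.97), *Irf5* (0.96), *Cd86* (0.96) and *Cd4* (0.96), while the median over all genes compared was 0.01. Among them *Cd2* and *Cd4* are T cell markers of the list above, with log2 fold changes of −1.22 (SE 0.418) and −1.14 (SE 0.411). *Myo1f*, a myosin of blood cells, and *Sash3*, an adaptor of lymphocytes, had −0.90 (SE 0.312) and −0.85 (SE 0.339), near the *Gimap* median. *Mndal* followed the *Gimap* mean most closely within the groups but had a log2 fold change of only −0.22 (SE 0.391). *Cd86*, a costimulatory ligand of antigen-presenting cells, had −0.76 (SE 0.439), *Irf5* −0.48 (SE 0.371), *Aph1c* −0.43 (SE 0.495), *Scimp* −0.33 (SE 0.414) and *Kynu* −0.12 (SE 0.496). By list, the median r with the *Gimap* mean was 0.76 for T cell markers, 0.78 for 2 NK cell markers, 0.62 for naive lymphocyte and 0.62 for B cell markers. It was 0.51 for phagocytes, 0.45 for effector lymphocytes, 0.45 for epithelium, 0.19 for neutrophils, 0.11 for endothelium and −0.08 for smooth muscle. DSS-5 weighed on all these r values, since its *Gimap* mean was −0.57 and those of the other DSS mice were 0.44 to 0.82. This mouse also had the lowest epithelial score (−0.59). Values of r without DSS-5 are not given here.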

How the data were processed

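The authors deposited 1 table with raw counts per gene and, beside each count, the FPKM value, which equals the count divided by exonic length and library total within 0.005. The submitters' processing notes name cutadapt 1.9.1 and HISAT2 2.2.1. The counting program, its strand setting and the genome build are not given in the sources used here, and 2.83% of the genes shared with GENCODE M21 (GRCm38) had the same position. Groups were compared on the counts with edgeR 4.0.16 in R 4.3.3 (filterByExpr with a minimum count of 10, TMM, quasi-likelihood test, two-sided, Benjamini-Hochberg adjustment over 16545 genes). Log2 CPM had a prior count of 1, permutation tests of single genes were exact over all assignments of 5 of 10 mice, and those of correlations used 100000 permutations. Alternatives were upper quartile normalization, DESeq2 1.42.0, a robust fit, voom with quality weights and limma-trend on FPKM (limma 3.58.1), other filters, the replicate number as a block, and leaving out each mouse; correlations were also read as rho, with a prior count of 0.25 and on group-centred values. Genes named are the members, their neighbors on the chromosome, the 10 genes most alike, and from each list the most abundant gene, that with the smallest p-value and those with the largest and smallest fold change, not all of which are mentioned. The result of 1 listed gene is not reported here. The members and the lists were chosen with earlier results of these data known. Between libraries of the same group, the chi-square per gene was 14.6 to 148, above the value of about 1 that repeated counting of the same RNA would give. The libraries of ceAF-1 (114 to 148 against the rest of its group) and DSS-5 (83.9 to 97.4) stood apart, and voom gave them the lowest quality weights (0.312 and 0.396). Python 3.11.15 with matplotlib 3.10.9 made the figures. Protein sequences were not used here.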

Additional observations from a re-analysis of the deposited data

Results flagged for a closer look

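The values below belong to a single mouse that stood apart from the other 4 of its group, by its distance to the closest of them as a share of the whole range, judged by Dixon's critical value. Of 42 groups looked at, 7 were beyond it, where chance alone gives about 1 in 20 groups, or 2.1. *Gimap4* was lowest in DSS-5 among the DSS mice, by 0.889 of the range. The mean of the 8 *Gimap* genes was lowest in the same mouse (0.724), and so was the T cell marker score (0.905). *Gimap9* was lowest in ceAF-4 among the ceAF mice (0.738). The naive or recirculating lymphocyte score (0.850) and the B cell score (0.824) were highest in DSS-1. The total counts of DSS-2 were the highest of the DSS group (0.908). The 3 values of DSS-5 are not independent, since *Gimap4* is part of the family mean and follows the T cell score.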

How the results depend on the processing

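In the 152 fits of single *Gimap* genes under the alternatives, all 152 log2 fold changes were negative and none passed after adjustment. *Gimap5* ranged from −1.03 without DSS-5 to −0.41 with limma-trend on log2(FPKM + 1), *Gimap8* from −0.67 without ceAF-5 to −0.26 without DSS-1, and *Gimap9* from −0.48 without DSS-5 to −0.18 without DSS-4. The median of the 8 genes ranged from −0.96 to −0.63 when 1 mouse was left out and was −0.56 with limma-trend on log2(FPKM + 1). Of the 8 genes, 3 were lower at an unadjusted p-value under 0.05 with the replicate block, beside 2.06% of all genes, and 3 to 7 when 1 mouse was left out, beside 1.92% to 5.94%. Over all genes, 31 were called after adjustment by DESeq2 against 0 by edgeR, and 0 to 3 when 1 mouse was left out (3 without DSS-5). Before adjustment, edgeR had 1146 genes under 0.05, and the count was 2452 with voom, 1733 without a filter, 694 with the replicate block and 712 (without DSS-1) to 1872 (without ceAF-1) when 1 mouse was left out. Of the 32 correlations, 13 passed, against 1 after centring on the groups. The causes were not tested. Mice of the same number correlated in their deviations with r from −0.25 to 0.29, and 1 of 5 pairs was over 0.1 and the best match of both mice, so the block result describes numbers rather than pairs.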
